A study of Homo sapiens with 6 samples.

Results

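The iron and heme handling genes described here were 10 of the 58884 gene rows of an RNA-seq experiment on CIRBP knockdown. They included the heme oxygenases HMOX1 and HMOX2 and the ferritin subunits FTH1 and FTL. The others were the iron transporters TFRC, SLC11A2 and SLC40A1 and the heme carriers SLC48A1, FLVCR1 and ABCG2. All 10 genes were taken by gene name. They were picked with earlier calls of the same NC against SiCIRBP comparison known, since the gene ontology term heme transport was enriched among those calls, so their levels and fold changes are given as a description and without a test. Cells of a line that the paper describes as immortalized human ventricular cardiomyocytes received negative control siRNA (NC, 3 libraries) or siRNA against CIRBP (SiCIRBP, 3 libraries). No drug is named for either group. The labels call the line T0519 and the paper calls it AC16. All 6 cultures are labelled as grown in Prigrow I medium with fetal bovine serum, and total RNA was sequenced. Nothing in the labels says that the 3 libraries of a group came from separate cultures, so p-values measure only the spread between these libraries, which may be technical.

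Iron enters most cells bound to transferrin through the transferrin receptor, is stored inside ferritin shells built of heavy and light subunits, and leaves through ferroportin. Heme is made in mitochondria and is opened by heme oxygenase into biliverdin, carbon monoxide and free iron, while membrane carriers move heme between compartments. When iron is scarce, iron regulatory proteins bind a hairpin called the iron-responsive element: in a 5′ UTR this holds back translation, as in ferritin mRNA, and in the 3′ UTR of the transferrin receptor mRNA it protects the transcript from decay. In the heart, iron is needed for respiration and for myoglobin, and an excess of it damages cardiomyocytes.

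The hairpin core is the sequence by which several of these mRNAs are read by iron regulatory proteins, so the cores in the members are shown before their levels. In the GENCODE 29 transcripts on GRCh38, a core was taken as a C, 5 bases, the loop CAGTGN and 5 further bases, on the sense strand of the transcript only, with at least 4 of 5 base pairs between the 5-base arms and G-T pairs allowed. Of the 10 members, 5 held such a core in a UTR, against 1409 of 20157 genes (6.99%), and 4 held one with all 5 pairs, against 202 genes (1%). The loop is in capitals in the sequences below, which read 5′ to 3′ on the minus strand except for FTL. FTH1 and FTL carried the core in the 5′ UTR, in 9 of 10 and in the only coding transcript. SLC40A1 carried it in the 5′ UTR of 1 of 5 coding transcripts, TFRC carried 4 cores in the 3′ UTR of 3 of 5 coding transcripts, and the SLC11A2 core, in the 3′ UTR of 7 of 25 coding transcripts, had 4 of 5 pairs.
FTH1, chr11:61967580-61967596: cttcaaCAGTGCttgga
FTL, chr19:48965341-48965357: cttcaaCAGTGTttgga
SLC40A1, chr2:189580667-189580683: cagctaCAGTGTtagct
TFRC, chr3:196050985-196051001: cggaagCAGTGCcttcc
TFRC, chr3:196050581-196050597: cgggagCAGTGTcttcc
TFRC, chr3:196050516-196050532: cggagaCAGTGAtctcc
TFRC, chr3:196050469-196050485: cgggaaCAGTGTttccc
SLC11A2, chr12:50988275-50988291: cagagcCAGTGTgtttc
The arms of the FTH1 and FTL cores were the same, and the 4 TFRC cores differed from each other in their 5′ arms, while those at 196050985 and 196050581 had the same 3′ arm. No core of this form was found in a UTR of HMOX1, HMOX2, SLC48A1, FLVCR1 or ABCG2, which says only that these letters are not there. A matching core is a description of the transcript and does not show that it is bound in these cells.

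The libraries held between 25726259 and 29919566 estimated counts. CIRBP, the siRNA target, stood at 86.4, 85.8 and 91.0 CPM (the estimated count scaled to the normalized library size) in NC_1, NC_2 and NC_3 and at 54.8, 24.3 and 46.3 CPM in SiCIRBP_1, SiCIRBP_2 and SiCIRBP_3. NC_1 and SiCIRBP_2 were left out of the study's own comparison for differing from their replicates, so values from the 4 other libraries are given first. Values from all 6 are given beside them for CIRBP, the tested members and the listed pathway genes that were called. The lowest correlation across genes within SiCIRBP was that of SiCIRBP_1 with SiCIRBP_2 (r = 0.967), against a lowest value of 0.993 within NC. SiCIRBP_2 had the lowest share of mitochondrial counts (2.18%, against 2.78% to 3.33% in the others). Over the 4 libraries CIRBP was lower by a log2 fold change of -0.81 ± 0.11 (SE; edgeR quasi-likelihood test, adjusted p = 0.00828), and over all 6 by -1.07 ± 0.26 (edgeR, adjusted p = 0.103; DESeq2, adjusted p = 0.00323). In TPM, CIRBP stood at 134, 133 and 149 in the NC libraries and at 62.1, 22.5 and 57.8 in the SiCIRBP libraries. On the log2(TPM + 1) scale over the 4 libraries its difference was -1.22, larger than in counts. Of the 8 cardiomyocyte markers examined, only ACTN2 exceeded 1 CPM in every library (14.0 to 22.2 CPM), and MYH6, MYL2 and RYR2 had no counts in any library. The 5 fibroblast markers summed to 2723 to 3407 CPM in NC and to 2045 to 5813 CPM in SiCIRBP libraries. Most of this was COL1A1 (2248 to 2932 CPM in NC and 1629 to 5234 CPM in SiCIRBP libraries). COL1A2 was higher in every SiCIRBP library than in any NC library, PDGFRA was lower, and COL1A1 and COL3A1 overlapped. DCN did not exceed 1.44 CPM in any library. Apart from ACTN2, the 8 cardiomyocyte markers were thus absent or did not exceed 1.07 CPM in any library. In bulk RNA, fewer cells of a type and less RNA per cell cannot be told apart.

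The ferritin subunits were by far the most abundant members. Compared per transcript length, the median level over the 6 libraries was 2829 TPM for FTL and 2337 TPM for FTH1, followed by 176 TPM for TFRC, 155 TPM for HMOX1, 62.6 TPM for HMOX2, 16.1 TPM for SLC11A2, 9.75 TPM for SLC48A1, 4.52 TPM for FLVCR1, 0.80 TPM for SLC40A1 and 0.12 TPM for ABCG2. In this order, the ranges of FTL and FTH1, of TFRC and HMOX1 and of SLC11A2 and SLC48A1 overlapped, whereas the other neighbours did not overlap in any library. The cells thus contained abundant mRNA for iron storage and for transferrin-bound uptake, and very little for ferroportin, the iron exporter encoded by SLC40A1, or for ABCG2, a plasma membrane pump that can carry heme and porphyrins.

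**Figure D1:**
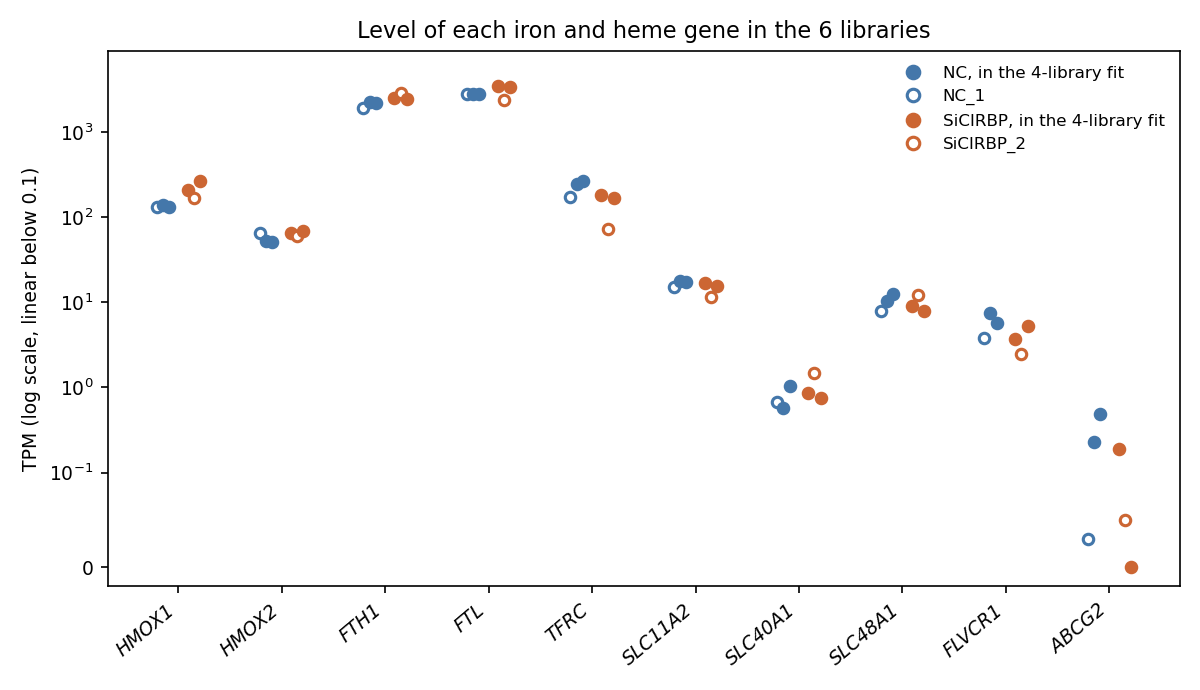
TPM of the 10 genes in each of the 6 libraries, on a log axis that is linear below 0.1; blue points are NC and orange points SiCIRBP libraries, and open points are NC_1 and SiCIRBP_2. FTL and FTH1 lie highest, SLC40A1 and ABCG2 lie lowest, and the order of the genes is much the same in both groups.

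HMOX1 (ENSG00000100292, chr22:35380361-35394214, plus strand) encodes the inducible heme oxygenase, which cells make in response to heme and to oxidative stress. It stood at 124, 136 and 125 CPM in NC_1, NC_2 and NC_3, and at 214, 195 and 273 CPM in SiCIRBP_1, SiCIRBP_2 and SiCIRBP_3. Every SiCIRBP library was above every NC library, and SiCIRBP_3 was the highest. Over the 4 libraries HMOX1 was 1.87-fold higher in SiCIRBP (log2 0.90 ± 0.13, SE), and over all 6 the log2 difference was 0.82 ± 0.15. In both fits it was the largest difference among the 9 members that passed the filter on low counts. On the TPM scale the levels were 130, 140 and 132 TPM in NC and 210, 169 and 269 TPM in SiCIRBP libraries. The length of transcript that the authors' TPM implies for HMOX1 differed by only 1.04-fold between the libraries, so that counts and TPM gave nearly the same picture.

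HMOX2 (ENSG00000103415, chr16:4474690-4510347, plus strand) encodes the constitutive heme oxygenase. It stood at 54.6, 45.6 and 43.9 CPM in the NC libraries and at 58.4, 59.7 and 59.8 CPM in the SiCIRBP libraries. The groups did not overlap, the SiCIRBP libraries were close together, and NC_1 lay nearest to them. The log2 difference was 0.40 ± 0.09 over the 4 libraries and 0.30 ± 0.12 over all 6. On the TPM scale NC_1, at 65.5 TPM, lay within the SiCIRBP range of 60.2 to 68.7 TPM, so the separation seen in CPM was not seen there. Of the 31-base words of the HMOX2 transcripts, 4.21% occur on the opposite strand in transcripts of the neighbouring gene NMRAL1, and whether counting used strand is not given in the sources used here.

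FTH1 (ENSG00000167996, chr11:61959718-61967660, minus strand) encodes the ferritin heavy chain, the subunit that oxidises iron for storage. It stood at 1096, 1205 and 1177 CPM in the NC libraries and at 1471, 2064 and 1373 CPM in the SiCIRBP libraries. All SiCIRBP libraries were above all NC libraries, and SiCIRBP_2 was far above the other two. The log2 difference was 0.26 ± 0.08 over the 4 libraries and 0.50 ± 0.16 over all 6, and with only SiCIRBP_2 added to the 4 libraries it was 0.46. In TPM the NC libraries held 1929, 2257 and 2211 TPM and the SiCIRBP libraries 2490, 2881 and 2418 TPM, a log2 difference of 0.14 on the log2(TPM + 1) scale over the 4 libraries.

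FTL (ENSG00000087086, chr19:48965301-48966878, plus strand) encodes the ferritin light chain, which helps the stored iron to form a mineral core. It stood at 1318, 1330 and 1300 CPM in the NC libraries and at 1729, 1306 and 1679 CPM in the SiCIRBP libraries. SiCIRBP_1 and SiCIRBP_3 lay above all NC libraries, while SiCIRBP_2 lay among them. The log2 difference was 0.37 ± 0.07 over the 4 libraries and 0.26 ± 0.13 over all 6.

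The 2 ferritin subunits did not move together in SiCIRBP_2. Relative to the mean of the NC libraries, FTH1 in SiCIRBP_2 was higher by 0.83 on the log2 scale, while FTL differed by -0.01. The ratio of FTH1 to FTL in TPM was 0.690, 0.797 and 0.782 in the NC libraries, 0.716 and 0.708 in SiCIRBP_1 and SiCIRBP_3, and 1.23 in SiCIRBP_2. The ratio thus differed little between the groups apart from this library. Both ferritin genes have processed copies in the genome with which reads can be shared. FTH1 shares 16.4% of its 31-base words with FTH1P10 and FTL shares 30.0% with FTLP3, but all 25 FTH1P rows together held 0.491 to 1.32 CPM in a library and all 16 FTLP rows at most 0.103 CPM, and no copy reached a mean of 1 CPM. FTH1 further shares 53.9% of its words with BEST1, which overlaps it on the opposite strand and held 0.739 to 1.55 CPM. How the authors' counting divided such reads was not tested.

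TFRC (ENSG00000072274, chr3:196027183-196082189, minus strand) encodes the transferrin receptor, through which cells take up transferrin-bound iron. It was the one member that was lower in SiCIRBP among those called, with 580, 810 and 854 CPM in NC_1, NC_2 and NC_3 and 634, 304 and 600 CPM in SiCIRBP_1, SiCIRBP_2 and SiCIRBP_3. NC_1 lay below SiCIRBP_1 and SiCIRBP_3, so the groups overlapped, and SiCIRBP_2 was far below all others. The log2 difference was -0.43 ± 0.08 over the 4 libraries and -0.54 ± 0.28 over all 6, with a standard error more than 3 times as large. TFRC in SiCIRBP_2 differed from the NC mean by -1.28 on the log2 scale. The 2 libraries that the study left out were thus the lowest of their own group for TFRC, with NC_1 closer to the SiCIRBP libraries and SiCIRBP_2 further away from NC.

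**Figure D2:**
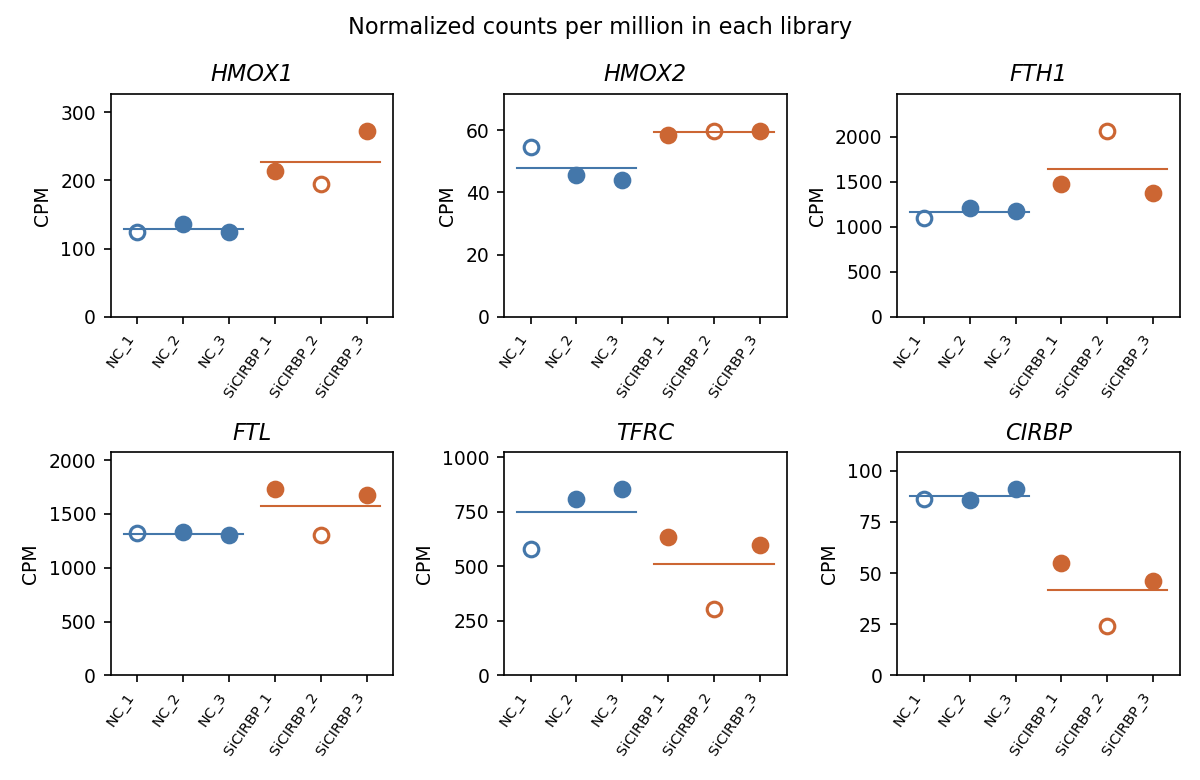
Normalized CPM of HMOX1, HMOX2, FTH1, FTL, TFRC and the siRNA target CIRBP in each library, on linear axes from 0; horizontal lines are the means of the 3 libraries of a group, and open points are NC_1 and SiCIRBP_2. HMOX1, HMOX2 and FTH1 do not overlap between groups, FTL overlaps through SiCIRBP_2 and TFRC overlaps through NC_1.

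The other transporters of iron differed little between the groups or were rare. SLC11A2 (ENSG00000110911), the proton-coupled transporter that moves ferrous iron out of endosomes, stood at 35.2, 38.0 and 36.5 CPM in NC and at 36.6, 30.1 and 32.8 CPM in SiCIRBP libraries. These ranges overlapped and the log2 difference was -0.10 ± 0.11 over the 4 libraries and -0.14 ± 0.13 over all 6. SLC40A1 (ENSG00000138449), which encodes ferroportin, rested on 28 to 99 estimated counts per library, at 1.65, 1.09 and 1.41 CPM in NC and 1.10, 3.85 and 1.92 CPM in SiCIRBP libraries. SiCIRBP_2 was the highest and SiCIRBP_1 lay at the lower end of the NC range. Its log2 difference was 0.27 ± 0.38 over the 4 libraries and 0.72 ± 0.46 over all 6, with standard errors that leave its size unresolved at this depth.

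None of the 3 heme carriers among the members separated the groups. SLC48A1 (ENSG00000211584), also known as HRG1, carries heme out of endosomes and lysosomes into the cytosol. It stood at 12.0, 14.7 and 17.0 CPM in NC and at 15.8, 22.2 and 12.1 CPM in SiCIRBP libraries, with overlapping ranges. Its log2 difference was -0.19 ± 0.17 over the 4 libraries and 0.20 ± 0.24 over all 6, so that its sign turned when NC_1 and SiCIRBP_2 were added. FLVCR1 (ENSG00000162769), a transporter of the plasma membrane first described as a heme exporter, stood at 13.7, 14.3 and 13.4 CPM in NC and at 14.1, 10.3 and 14.8 CPM in SiCIRBP libraries, a log2 difference of 0.06 ± 0.12 over the 4 libraries and -0.08 ± 0.18 over all 6. ABCG2 (ENSG00000118777) had between 0 and 5 estimated counts per library and did not pass the filter on low counts, so no difference was detectable at this depth.

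FLVCR1 gave another picture in TPM than in counts. Its TPM values were 3.82, 7.44 and 5.79 in NC and 3.73, 2.47 and 5.22 in SiCIRBP libraries, a log2 difference of -0.48 on the log2(TPM + 1) scale over the 4 libraries. The length of transcript that counts and TPM together imply for FLVCR1 was 5074, 2731 and 3404 bases in NC_1, NC_2 and NC_3, and 5160, 5056 and 3862 bases in SiCIRBP_1, SiCIRBP_2 and SiCIRBP_3, with NC_1 among the SiCIRBP libraries. This range of 1.89-fold over the 6 libraries compares with a median of 1.13-fold over 12979 genes and lay at the 96.1 percentile. A similar range was seen for SLC40A1 (1.99-fold, on 28 to 99 estimated counts per library), but not for TFRC (1.08-fold) or HMOX2 (1.06-fold). The implied length follows the isoforms to which the authors' tool assigned the reads, and whether the isoforms differed was not tested. FTL (1.015-fold) has only 1 annotated transcript, so its implied length could not change with the isoform assigned and is no comparison for FLVCR1.

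Of the 9 members tested, 4 passed the call used here, a Benjamini-Hochberg adjusted p under 0.05 at any fold over the 4 libraries, with HMOX1, HMOX2 and FTL higher and TFRC lower. Across all 15421 genes tested, 19.4% were called, with 9.62% higher and 9.76% lower, and since the members were picked from this comparison nothing is read from their count. No member reached 2-fold together with the call, against 3.62% of all genes. The median log2 difference of the 9 members was 0.26, against 0.00 over all genes tested. It was 0.03 without SiCIRBP_3, 0.11 without NC_2 and 0.12 with NC_1 added. On the log2(TPM + 1) scale it was 0.01, against -0.08 over all genes tested. Nothing is read from these medians. Over all 6 libraries, edgeR called 0 of 15217 genes and no member, while 3603 genes had an unadjusted p under 0.05. DESeq2 called 1351 genes over the 6 libraries (9.52% of those it tested), HMOX1 being the only member among them. In CPM, 3 of the 9 members (HMOX1, HMOX2 and FTH1, all higher) did not overlap between the 3 SiCIRBP and 3 NC libraries, against 32.8% of all genes (16.2% higher and 16.6% lower), and nothing is read from this count either.

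**Figure D3:**
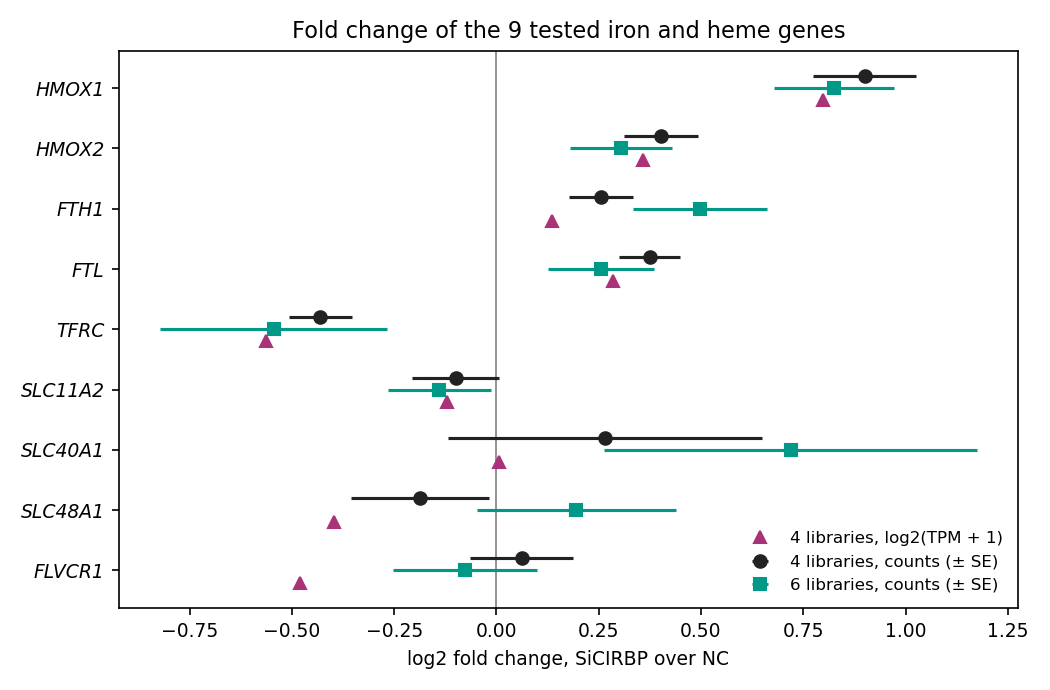
Log2 fold change of SiCIRBP over NC for the 9 tested members, from counts over the 4 libraries (circles) and over all 6 libraries (squares), each with its standard error, and on the log2(TPM + 1) scale over the 4 libraries (triangles). HMOX1, HMOX2, FTH1 and FTL lie above 0 and TFRC below 0 on all 3 scales, whereas SLC48A1 and FLVCR1 lie on both sides of 0.

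The other genes of iron and heme metabolism were taken from a list of 56 genes, of which 46 were tested. Of these, 4 were higher and 3 lower in SiCIRBP by edgeR's adjusted p over the 4 libraries, and the median log2 difference was 0.05. The 7 calls of 46 genes stand against 19.4% called among all genes, and nothing particular to the list is read from them. Among the 45 listed genes that passed the filter over 6 libraries, 9 were higher and 8 lower in all 3 SiCIRBP libraries than in all 3 NC libraries, beside 16.2% higher and 16.6% lower among all genes.

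Heme sensing was represented by BACH1, the heme-binding repressor of HMOX1 and of the ferritin genes. BACH1 stood at 22.8, 32.7 and 35.3 CPM in NC and at 20.4, 23.6 and 17.8 CPM in SiCIRBP libraries. NC_1 lay below SiCIRBP_2, so the groups overlapped. Over the 4 libraries BACH1 was lower by a log2 of -0.83 ± 0.12 (edgeR, adjusted p = 0.0102). Over all 6 it was lower by -0.56 ± 0.20 (edgeR, adjusted p = 0.155; DESeq2, adjusted p = 0.0860). On the log2(TPM + 1) scale the difference was only -0.16, and the implied length of BACH1 was 5316 and 5413 bases in NC_2 and NC_3 against 3453 and 2978 bases in SiCIRBP_1 and SiCIRBP_3. In the other libraries the implied length was 4846 bases in NC_1 and 5108 bases in SiCIRBP_2, both with low counts of BACH1, so a lower count did not always go with a shorter implied length. Whether its isoforms differed was not tested. Of the biliverdin reductases, which act after heme oxygenase, BLVRB differed by 0.38 ± 0.12 (edgeR, adjusted p = 0.0663) and BLVRA by -0.05 ± 0.17 (edgeR, adjusted p = 0.860).

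Heme synthesis had 8 tested genes, of which UROD, the uroporphyrinogen decarboxylase, was higher and 7 did not pass the test. UROD stood at 48.4, 44.0 and 42.4 CPM in NC and at 56.4, 55.9 and 57.1 CPM in SiCIRBP libraries, and the groups did not overlap. The log2 difference was 0.40 ± 0.09 over the 4 libraries (edgeR, adjusted p = 0.0289). Over all 6 it was 0.33 ± 0.11 (edgeR, adjusted p = 0.146, and DESeq2, adjusted p = 0.107). ALAS1, the first and rate-limiting enzyme of the pathway outside erythroid cells, differed by 0.04 ± 0.08 (edgeR, adjusted p = 0.750), and ALAS2, its erythroid form, had no counts.

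Of the 6 tested heme carriers outside the members, FLVCR2, a transporter related to FLVCR1, was higher in SiCIRBP and the others did not pass the test. FLVCR2 stood at 6.66, 4.47 and 5.18 CPM in NC and at 7.47, 10.4 and 13.9 CPM in SiCIRBP libraries. The groups did not overlap, though NC_1 and SiCIRBP_1 lay close to each other. In TPM they did overlap, with NC_1 at 3.80 TPM above SiCIRBP_1 at 3.30 TPM, and the difference on the log2(TPM + 1) scale over the 4 libraries was 0.62 and did not pass the test. The log2 difference was 1.15 ± 0.30 over the 4 libraries (edgeR, adjusted p = 0.0433), the only call at 2-fold on the list. Over all 6 it was 0.96 ± 0.27 (edgeR, adjusted p = 0.117; DESeq2, adjusted p = 0.0172).

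Iron uptake had 9 tested genes, of which 1 was lower. SLC39A14, a zinc transporter that also takes up iron not bound to transferrin, stood at 395, 472 and 491 CPM in NC and at 336, 256 and 358 CPM in SiCIRBP libraries, with no overlap. Its log2 difference was -0.47 ± 0.08 over the 4 libraries (edgeR, adjusted p = 0.0135). Over all 6 it was -0.52 ± 0.16 (edgeR, adjusted p = 0.125; DESeq2, adjusted p = 0.0496). STEAP3, the endosomal reductase that prepares iron for SLC11A2, differed by -0.36 ± 0.11 (edgeR, adjusted p = 0.0641). HFE, a partner of the transferrin receptor, had the largest difference of this list at 0.78 ± 0.22 (edgeR, adjusted p = 0.0536), with SiCIRBP_2 at 3.70 CPM below and the other SiCIRBP libraries at 7.36 and 9.94 CPM above the NC range of 4.39 to 5.64 CPM. Over all 6 libraries the difference of HFE was 0.46 ± 0.34 (edgeR, adjusted p = 0.421).

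The ferritin-handling genes NCOA4, PCBP1 and PCBP2 and the iron sensors ACO1, IREB2 and FBXL5 did not pass the test. NCOA4, the receptor that delivers ferritin to lysosomes, differed by 0.15 ± 0.09 (edgeR, adjusted p = 0.274). ACO1 and IREB2, which encode the 2 iron regulatory proteins, differed by -0.04 ± 0.09 (edgeR, adjusted p = 0.802) and -0.09 ± 0.08 (edgeR, adjusted p = 0.479). Among sensing and hepcidin genes, TMPRSS6 had the largest difference at 1.22 ± 0.52 (edgeR, adjusted p = 0.143), on 4 to 13 estimated counts per library. HAMP, which encodes the iron hormone hepcidin, and the ferroxidases CP and HEPH were not expressed at a level that passed the filter.

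Mitochondrial iron import and iron-sulfur cluster assembly had 12 tested genes, of which 2 were higher and 1 lower. ISCA1, an assembly factor for clusters of 4 iron atoms, had the largest difference of them, at 48.4, 41.6 and 37.3 CPM in NC and 67.1, 62.3 and 64.9 CPM in SiCIRBP libraries. All SiCIRBP libraries were above all NC libraries, and the log2 difference was 0.75 ± 0.10 over the 4 libraries (edgeR, adjusted p = 0.00808). Over all 6 it was 0.61 ± 0.13 (edgeR, adjusted p = 0.0920; DESeq2, adjusted p = 0.00534). GLRX5, a glutaredoxin that hands on clusters, was higher by 0.47 ± 0.11 over the 4 libraries (edgeR, adjusted p = 0.0283), and its groups did not overlap. Over all 6 libraries GLRX5 was higher by 0.40 ± 0.14 (edgeR, adjusted p = 0.147, and DESeq2, adjusted p = 0.0977). SLC25A37, the mitochondrial iron importer mitoferrin-1, was lower by -0.38 ± 0.08 over the 4 libraries (edgeR, adjusted p = 0.0264), while SiCIRBP_2 at 84.1 CPM lay above NC_1 at 80.2 CPM. Over all 6 libraries the difference of SLC25A37 was -0.23 ± 0.13 (edgeR, adjusted p = 0.299, and DESeq2, adjusted p = 0.363).

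The gene ontology term heme transport was also examined row by row, since it led to the choice of the members. It stood in the deposited annotation of 66 rows, of which 9 were protein-coding genes, among them the members SLC48A1, FLVCR1 and ABCG2. Of the 6 protein-coding genes tested, FLVCR2 was called and the others, with the members SLC48A1 and FLVCR1 among them, were not. Of the 57 other rows, mostly long non-coding RNAs, 14 were tested and 5 were called, each at 2-fold or more, beside 19.4% called and 3.62% called at 2-fold among all genes: AC092718.4, AC006538.1, AC027020.2 and AL162171.4 were higher and RN7SKP23 was lower. AC092718.4 had a mean level of 3.95 CPM, and the others had means of only 0.463 to 0.689 CPM. For AC006538.1, AC027020.2 and AL162171.4, NC_1 lay above a SiCIRBP library, so the groups overlapped over the 6 libraries. Nothing is read from the number of these calls. In the deposited annotation, 40 of the 57 non-coding rows had the Swiss-Prot entry of LINC00269 as their best match. Thus 5 of the 6 called rows that carried the term were not protein-coding genes, beside 14 of the 20 tested rows. No member that carried the term was called.

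Genes with an iron-responsive element core of 5 pairs in a UTR did not share 1 direction. Of 202 such genes, 162 were tested, 19 were higher and 26 lower in SiCIRBP (27.8% called, against 19.4% of all genes). Their median log2 difference was -0.06, and the members FTL and TFRC were among those called. Of the 202 genes, 4 were members picked from this comparison. Whether this share differs from that of all genes was not tested, and nothing is read from it.

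The genes whose levels followed those of the main members most closely over the 6 libraries were found by Pearson correlation of log2(CPM + 1) among 9437 genes with a mean of at least 10 CPM. For HMOX1 they were UBE3A (r = 0.999), AC073896.1 (r = 0.996) and DPP9 (r = 0.990), and for TFRC they were CPSF1, ACKR3 and FOXJ2 (each r = 0.997). For FTH1 they were NAA60 (r = 0.999), ILKAP (r = 0.997) and TUFT1 (r = 0.996), and for FTL C11orf95 (r = 0.998), NOL10 (r = 0.989) and GPAA1 (r = 0.986). With 6 libraries in 2 groups and 9437 genes searched, these values are a description of these libraries only.

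Markers of other cells that handle iron or heme were low but not even between the groups. The 4 leukocyte markers, which cover macrophages, summed to 7.88 to 8.41 CPM in NC and 10.9 to 13.9 CPM in SiCIRBP libraries, nearly all of it CD68, while CD163 had no counts and PTPRC and CSF1R reached at most 0.178 and 0.233 CPM. The 4 erythroid markers summed to 0.140 to 0.272 CPM in NC and 0.784 to 1.40 CPM in SiCIRBP libraries, which came from HBA1, with HBB and ALAS2 at 0 counts. CD68 and HBA1 did not overlap between the groups and were higher in SiCIRBP, and the part of other cell types in the values above was not tested.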

How the data were processed

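RNA-seq was analysed in 3 NC and 3 SiCIRBP libraries, grouped by their labels. Per the labels, reads were processed by the authors with fastp, HISAT and RSEM on hg38; versions, annotation release and strandedness are not given in the sources used here. The authors deposited an estimated count per gene and library, which need not be whole, and a TPM value, the count scaled by assigned transcript length and library. The deposited fold changes and p-values of the authors' own comparison were not used.

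After rounding, edgeR 4.0.16 (R 4.3.3) was run on the estimated counts with its quasi-likelihood test, TMM and filterByExpr, over NC_2, NC_3, SiCIRBP_1 and SiCIRBP_3, the libraries kept by the study. Genes with a Benjamini-Hochberg adjusted p under 0.05 were called. Standard errors were obtained from the F statistic, as |log2 fold change| / √F. CPM values use TMM factors from all 6 libraries. TPM was tested as log2(TPM + 1) with limma 3.58.1. On this scale the median log2 difference over all genes tested was -0.08. Of 58884 identifiers, 58611 were found in GENCODE 29, whose transcripts gave sequences and shared 31-base words. Implied length is the estimated count divided by TPM, scaled on 426 genes with 1 transcript. Scripts were tested on simulated counts. The alternatives were other sets of libraries, a replicate block, DESeq2 1.42.0, RLE size factors, other filters and TPM.

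The members and lists were chosen with earlier results of these data known. The genes named are the members, CIRBP, the listed pathway genes past the threshold, the gene of largest change in each list, processed ferritin copies with a mean of at least 1 CPM (there were none), rows annotated with heme transport, and the 3 genes most like HMOX1, FTH1, FTL and TFRC; other pathway genes are named for their roles and were chosen after their values were seen. FTH1P10, FTLP3, BEST1 and NMRAL1 fall outside this rule and are named for the sequence they share with members. Some of the genes tested are not reported here.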

Additional observations from a re-analysis of the deposited data

How the results depend on the processing

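Every fold change of HMOX1, HMOX2, FTH1, FTL, TFRC and SLC11A2 kept its sign in all 14 alternatives, with ranges on the log2 scale of 0.71 to 1.06 for HMOX1, 0.30 to 0.43 for HMOX2, 0.14 to 0.50 for FTH1, 0.24 to 0.39 for FTL, -0.70 to -0.28 for TFRC and -0.19 to -0.03 for SLC11A2. SLC40A1 (-0.20 to 0.86), SLC48A1 (-0.40 to 0.20) and FLVCR1 (-0.48 to 0.11) did not. Counts of calls depended strongly on the libraries. The 4 members called became 0 over all 6 libraries, 2 with NC_1 added, 0 with SiCIRBP_2 added, 1 with DESeq2 over 6 libraries and 2 with TPM. The 7 other pathway genes called became 0 over 6 libraries, 1 with NC_1 added, 0 with SiCIRBP_2 added, 3 with DESeq2 over 6 and 3 with TPM. The 2989 genes called in all became 0, 1118, 18, 1351 and 1208 in the same order, and 4615 with no filter on low counts. CIRBP changed by -1.07 over 6 libraries and by -1.08 with SiCIRBP_2 added, neither past the threshold in edgeR, while DESeq2 over the same 6 libraries gave -1.07 (adjusted p = 0.00323). Leaving out 1 library gave 0 to 6 members, 0 to 19 other pathway genes and 64 to 7048 genes, with CIRBP between -0.94 and -0.70 and not past the threshold without NC_2 or without NC_3. Leaving out NC_2 or NC_3 gave the low counts and leaving out SiCIRBP_1 or SiCIRBP_3 the high ones, and the lone library is then assumed to vary like the other group. The replicate block over 6 libraries gave 0 members, 0 other pathway genes, 1 gene in all and a CIRBP change of -1.14. Between libraries of equal number, deviations from the group mean correlated at -0.118, 0.00607 and -0.0264. With 3 libraries in a group these values depend on each other, so whether equal numbers mark pairs is not settled. With all 5 pairs required, 202 in place of 1409 genes held a core. The cause of these changes was not tested. With 28 to 99 counts for SLC40A1 and 0 to 5 for ABCG2, depth limits what can be said of either.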
